A study of Mus musculus with 96 samples.

Results

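The RNA-seq counts of 10 genes of vascular endothelium were examined in liver, skeletal muscle and cerebral cortex of mice fed ad libitum (AL) or kept on intermittent fasting (IF). The genes were Robo4, Pecam1, Cdh5, Tek, Tie1, Kdr, Flt1, Esam, Cldn5 and Klf2, found by symbol as 10 of the 56748 genes in the count table. They were chosen by name as endothelial genes around Robo4, from earlier AL and IF values of these same libraries, and which of the comparisons guided the choice is not recorded. Calls on these 10 genes come from fits across all genes, but since the choice used the same values they are given as a description, with no p-value and nothing read from their number. The study asked how IF alters gene expression in each tissue. Male C57BL/6 mice were fed AL or fasted for 16 h each day for 4 months from 6 weeks of age, and per the study's methods they were perfused with saline and sampled in the morning, for the IF mice at the end of the fast. The labels also list female mice on AL or IF, whose strain, age and fasting schedule neither the labels nor the study's methods give. Each tissue, sex and diet has 8 libraries, 1 per mouse, and the tissues of a sex come from the same mice. Sex cannot be told apart from any other difference between the male and the female mice.

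Endothelial cells line every blood vessel and read growth factors, cell contacts and flow. Kdr and Flt1 encode receptors of vascular endothelial growth factors, Kdr being the main signalling receptor and Flt1 binding the ligand tightly with weak signalling. Tek encodes the angiopoietin receptor, Tie1 its relative, and Robo4 an endothelial receptor of the roundabout family that stabilises vessels. Pecam1, Cdh5 (VE-cadherin), Esam and Cldn5 encode proteins of cell junctions, Cldn5 being the main claudin of brain vessels, and Klf2 encodes a transcription factor induced by flow.

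The summed gene count of a library ranged from 26097314 to 49838004 (median 36132954) over the 95 libraries compared. One library went against its label. The cortex library of AL mouse 1, labelled male, held 213 CPM (the count scaled to a library total of 1e6) of the female-specific Xist and 0 counts of the Y-linked Ddx3y, whereas the other 47 male libraries held at most 0.612 CPM of Xist and at least 25.1 CPM of Ddx3y. It was left out of all values below unless stated, so that cortex of male AL mice has 7 libraries. The labelled tissues carried their defining genes. The sum of 4 hepatocyte genes was at least 38540 CPM in each male liver library and that of 4 muscle fibre genes at least 104869 CPM in each male muscle library. The sum of 4 neuronal genes was at least 4730 CPM in each cortex library. Each of the 10 genes was counted in every library, with a lowest count of 44 (Tek in a female IF liver), and all 10 passed the expression filter in every comparison. A lower value in these whole tissues may mean fewer endothelial cells or less RNA per cell, which cannot be told apart.

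In CPM over library totals, Kdr was highest in muscle and Flt1 in cortex of fed males. Kdr was at 27.7 ± 5.12 CPM (SD, n = 8) in muscle, 15.6 ± 3.49 CPM (SD, n = 8) in liver and 11.4 ± 1.74 CPM (SD, n = 7) in cortex, and the liver and cortex libraries overlapped. Flt1 was at 55.7 ± 4.75 CPM (SD, n = 7) in cortex, 35.3 ± 5.05 CPM (SD, n = 8) in muscle and 9.05 ± 2.29 CPM (SD, n = 8) in liver, with no overlap between these tissues. This order of Flt1 depended on the scaling. With TMM factors over the 95 libraries, which allow for the few very abundant transcripts of liver and muscle, Flt1 was at 48.6 CPM in muscle and 38.3 CPM in cortex, so that Kdr (38.1 CPM in muscle, 17.8 CPM in liver and 7.87 CPM in cortex) and Flt1 were both highest in muscle. Tek varied least between the tissues in fed males, with means of 8.19 CPM in liver, 10.9 CPM in muscle and 10.1 CPM in cortex and overlapping libraries. In fed females Klf2 varied least, with a ratio of the highest to the lowest mean of 1.51, against 2.23 for Tek. Tie1 was at 30.4 ± 4.08 CPM (SD, n = 8) in muscle, above both liver (18.2 ± 3.23 CPM) and cortex (14.04 ± 2.11 CPM), which overlapped.

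Robo4 was the gene of the 10 with its highest CPM in liver. It was at 25.2 ± 4.17 CPM (SD, n = 8) in liver, 15.5 ± 1.78 CPM (SD, n = 8) in muscle and 9.09 ± 1.42 CPM (SD, n = 7) in cortex of fed males, without overlap, and the order was the same in females and with TMM factors. In fed females the liver and muscle libraries overlapped. Among the junction genes, Cdh5 and Pecam1 were highest in muscle (54.8 ± 6.94 and 43.8 ± 3.77 CPM in fed males) and Cldn5 in cortex (100 ± 12.8 CPM, against 20.04 ± 4.36 CPM in muscle and 8.86 ± 1.46 CPM in liver). Esam was at 25.8 ± 2.41 CPM in muscle and 23.4 ± 1.89 CPM in cortex, which overlapped, and at 10.9 ± 2.06 CPM in liver. Klf2 was at 26.9 ± 7.05 CPM in muscle, 22.4 ± 4.00 CPM in cortex and 12.3 ± 1.85 CPM in liver, and its muscle and cortex libraries overlapped too. TMM factors widened the gap between muscle and cortex for Esam (35.6 and 16.1 CPM) and Klf2 (37.1 and 15.4 CPM) in fed males and narrowed it for Cldn5 (68.9 CPM in cortex and 27.7 CPM in muscle). Under these factors, the order of the tissues changed for 4 of the 10 genes in fed males and for 5 in fed females.

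Per length (RPKM, CPM per kilobase of the gene length in the count table), Cldn5 was the most abundant of the 10 in male cortex, at 70.6 ± 9.01 RPKM (SD, n = 7), followed by Klf2 at 12.1 ± 2.17 RPKM. In liver of fed males the genes lay closer together, from Klf2 at 6.66 ± 1.001 RPKM (SD, n = 8), Cldn5 at 6.26 ± 1.03 RPKM and Robo4 at 4.75 ± 0.786 RPKM down to Flt1 at 0.670 ± 0.169 RPKM. Muscle of fed males was led by Klf2 at 14.6 ± 3.82 RPKM (SD, n = 8), Cldn5 at 14.2 ± 3.08 RPKM and Cdh5 at 13.05 ± 1.65 RPKM, which did not differ beyond their spread, and Robo4 there was at 2.92 ± 0.335 RPKM. The share of Robo4 in the summed counts of the 10 genes was 18.9 ± 2.31% (SD, n = 8) in liver, 5.33 ± 0.539% (SD, n = 8) in muscle and 3.24 ± 0.385% (SD, n = 7) in cortex of fed males. This was the largest mean share of the 10 genes in liver and the smallest in cortex. These shares are of counts and are not scaled by length. Per length Robo4 came after Klf2 and Cldn5 in liver. In cortex it was at 1.71 ± 0.268 RPKM, with Kdr lowest at 1.27 ± 0.193 RPKM.

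**Figure D1:**
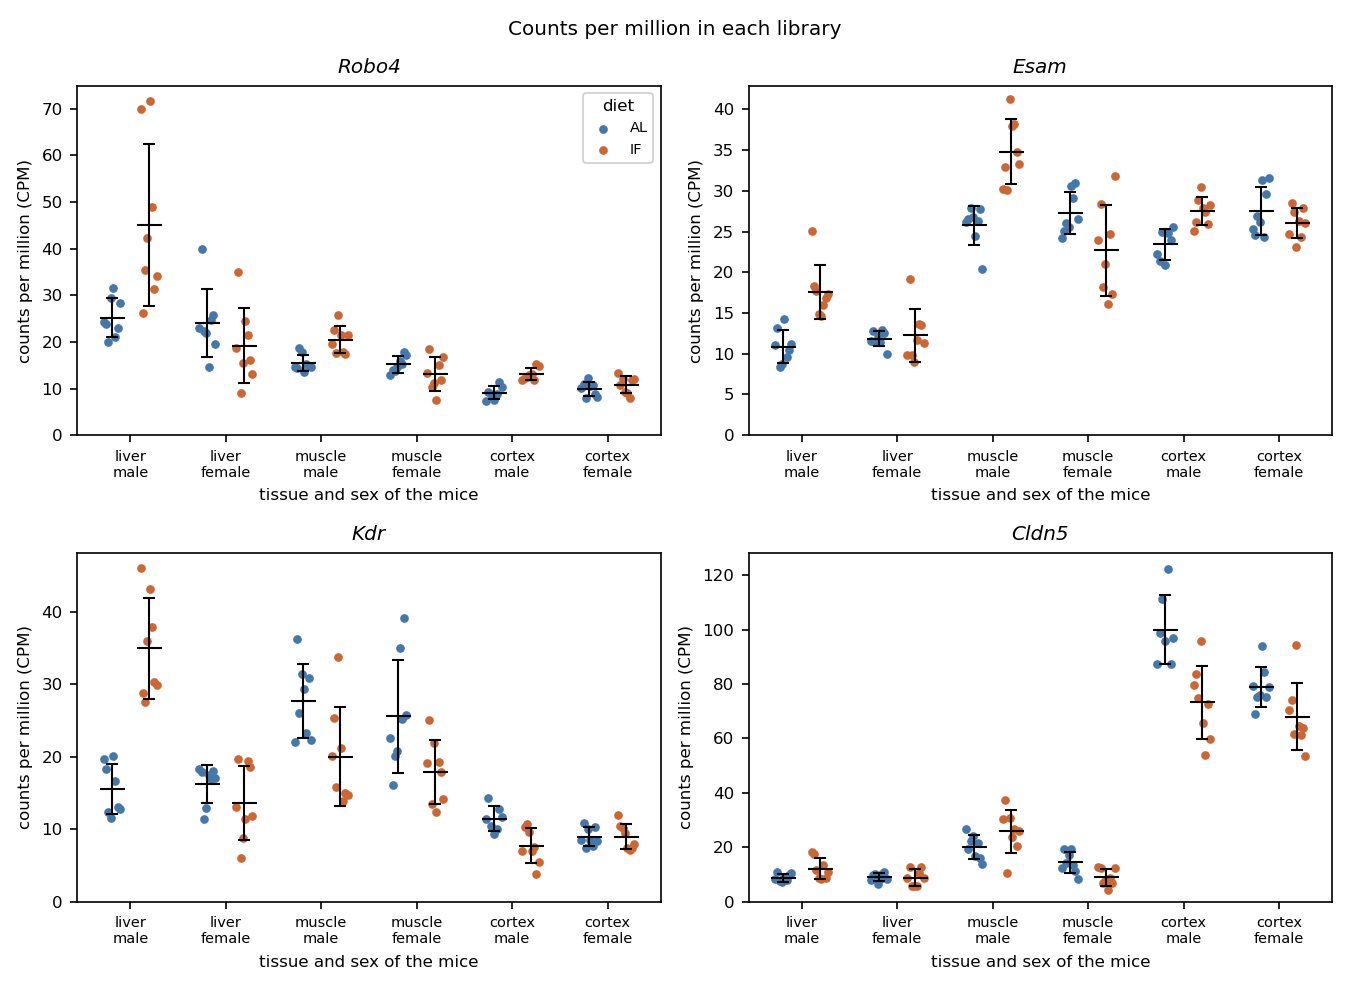
CPM (y axis) of Robo4, Esam, Kdr and Cldn5 in each library, by tissue and sex of the mice (x axis) and diet (AL in blue, IF in orange), with 1 point per library, the mean as a long bar and the SD as an error bar. Robo4 lies higher in male IF than in male AL mice in each tissue, while Kdr lies higher in male IF liver, at 27.6 to 46.1 CPM, and lower in male IF muscle, at 13.9 to 33.7 CPM.

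In livers of male mice, Kdr had the highest log2 fold change of the receptor genes. Kdr lay between 11.6 and 20.1 CPM in AL livers (median 14.9) and between 27.6 and 46.1 CPM in IF livers (median 33.2), and every IF library was above every AL library. The fitted log2 fold change of Kdr, IF over AL, was 1.07 ± 0.12 (SE, n = 8 and 8). Robo4 lay between 19.9 and 31.6 CPM in AL (median 24.01) and between 26.2 and 71.6 CPM in IF (median 38.9), with 6 of the 8 IF libraries above all AL libraries, and its log2 fold change was 0.72 ± 0.16. The spread of Robo4 was wider in IF than in AL livers, with an SD of 17.3 against 4.17 CPM. Tek had a log2 fold change of 0.54 ± 0.18, Flt1 of 0.40 ± 0.16 and Tie1 of 0.28 ± 0.16, each with overlapping groups.

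Of the junction genes of male liver, Esam had the highest log2 fold change. Esam lay between 8.40 and 14.3 CPM in AL (median 10.8) and between 14.6 and 25.02 CPM in IF (median 17.1), without overlap, at a log2 fold change of 0.61 ± 0.12. Log2 fold changes were 0.36 ± 0.17 for Cldn5, 0.27 ± 0.11 for Pecam1 and 0.23 ± 0.16 for Cdh5, and these groups overlapped. Klf2 lay between 9.92 and 16.0 CPM in AL (median 12.2) and between 13.6 and 25.6 CPM in IF (median 16.8), at a log2 fold change of 0.47 ± 0.14. All 10 log2 fold changes were above 0 in the fit as designed, with a median of 0.44, beside 0.06 for all genes tested. Of the 10 genes, 6 had an adjusted p under 0.05 in edgeR's quasi-likelihood test across all genes, each of them higher in IF (Robo4, Tek, Kdr, Flt1, Esam and Klf2). In the same test 44.6% of the 16204 genes tested passed, 23.5% higher and 21.1% lower in IF. Groups without any overlap were found for 2 of the 10 genes and for 14.6% of all genes tested. Without IF mouse 9, Tek and Flt1 no longer passed (log2 fold changes of 0.39 ± 0.17 and 0.25 ± 0.14). Flt1 was also lost without any of AL mice 3, 4, 7 and 8 or IF mice 10 and 11, where its log2 fold change lay between 0.33 and 0.40, and with DESeq2, RLE size factors or no filter beyond 1 count. Pecam1 passed without any of AL mouse 7 and IF mice 12, 14 and 15, at 0.30 to 0.32, and with a filter of at least 10 counts in every library (0.27). With library totals alone, Pecam1 (0.37) and Cldn5 (0.45) passed too, 8 of the 10 in all. That scaling also moved the median log2 fold change of all genes, from 0.06 to 0.15.

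In muscle of male mice, Robo4 and Esam were higher and Kdr was lower under IF. Robo4 lay between 13.6 and 18.6 CPM in AL muscle (median 14.7) and between 17.4 and 25.8 CPM in IF muscle (median 20.6), with 5 of 8 IF libraries above all AL libraries and a log2 fold change of 0.33 ± 0.08 (SE, n = 8 and 8). Esam lay between 20.4 and 27.9 CPM in AL (median 26.4) and between 30.1 and 41.2 CPM in IF (median 33.997), without overlap, at a log2 fold change of 0.36 ± 0.07. Kdr went the other way from liver. It lay between 22 and 36.2 CPM in AL (median 27.7) and between 13.9 and 33.7 CPM in IF (median 17.9), with 6 of 8 IF libraries below all AL libraries and a log2 fold change of -0.54 ± 0.17. The share of Kdr in the counts of the 10 genes was 9.49 ± 1.37% in AL and 5.97 ± 1.28% in IF muscle, but 11.6 ± 1.87% in AL and 16.8 ± 1.67% in IF liver (SD, n = 8 each).

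The other receptor genes of male muscle had log2 fold changes of 0.15 ± 0.08 for Flt1, 0.11 ± 0.08 for Tek and -0.01 ± 0.09 for Tie1. Klf2 (0.36 ± 0.19) and Cldn5 (0.29 ± 0.21) varied widely between mice. Pecam1 was at 0.17 ± 0.07, with 5 of 8 IF libraries above all AL libraries, and Cdh5 at -0.10 ± 0.09. Of the 10 genes, 3 had an adjusted p under 0.05 in edgeR's test, Robo4 and Esam higher and Kdr lower, in a comparison where 23.0% of the 15025 genes tested passed (11.5% higher and 11.6% lower in IF). Esam alone of the 10 had groups without overlap (1 of 10), beside 4.17% of all genes tested. The median log2 fold change was 0.16 for the 10 genes and 0.01 for all genes tested. Kdr no longer passed without any of AL mice 2 and 4 and IF mice 11, 14, 15 and 16 (log2 fold changes between -0.52 and -0.48), when libraries were scaled by their totals alone or with no filter beyond 1 count, and Pecam1 passed without IF mouse 10 (0.20) and with library totals alone (0.24). Library totals alone moved the median of all genes here from 0.01 to 0.08.

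In cortex of male mice, Robo4 had the highest log2 fold change of the 10 genes. It lay between 7.40 and 11.4 CPM in AL cortex (median 8.93) and between 11.8 and 15.3 CPM in IF cortex (median 12.7), without overlap, at a log2 fold change of 0.54 ± 0.10 (SE, n = 7 and 8). Esam lay between 20.9 and 25.6 CPM in AL (median 23.9) and between 25.1 and 30.4 CPM in IF (median 27.6), at 0.25 ± 0.06, with 7 of 8 IF libraries above all AL libraries. Cldn5, the most abundant of the 10 here, was lower under IF. It lay between 87.4 and 122 CPM in AL (median 96.9) and between 54.0 and 95.8 CPM in IF (median 73.7), at a log2 fold change of -0.43 ± 0.11, with 7 of 8 IF libraries below all AL libraries. The groups of Esam and Cldn5 thus overlapped by single libraries.

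Kdr had the lowest log2 fold change in male cortex, at -0.55 ± 0.18, with 3.85 to 10.8 CPM in IF against 9.28 to 14.3 CPM in AL mice. Tek was at -0.23 ± 0.08, Tie1 at 0.15 ± 0.09 and Klf2 at 0.27 ± 0.19. Pecam1 (-0.11 ± 0.09), Cdh5 (-0.11 ± 0.08) and Flt1 (0.00 ± 0.06) differed by little more than their standard error or by less. Of the 10 genes, 3 had an adjusted p under 0.05 in edgeR's test, Robo4 and Esam higher and Cldn5 lower. Here 7.21% of the 18462 genes tested passed, 3.79% higher and 3.43% lower in IF, and the libraries of 1.01% did not overlap, as those of 1 of the 10 genes (Robo4). The number of genes behind this share, 1332, was not stable, at 638 to 2060 with single mice left out and 294 with the library of AL mouse 1. The median log2 fold change was -0.05 for the 10 genes and 0.00 for all genes tested. With the library of AL mouse 1 included, which held 10.8 CPM of Robo4, 26.97 CPM of Esam and 55.1 CPM of Cldn5, the log2 fold changes were 0.50 ± 0.09 for Robo4, 0.21 ± 0.06 for Esam and -0.35 ± 0.14 for Cldn5, and Robo4 alone of the 10 passed. The call of Esam was also lost without any of AL mice 2, 3 and 5 and IF mouse 11 (log2 fold changes between 0.22 and 0.24), without AL mouse 2 and IF mouse 10 together, with a replicate block and with no filter beyond 1 count, in 8 of 23 alternatives. That of Cldn5 was lost without IF mouse 13 (-0.41), with the block, with no filter and with the library of AL mouse 1, in 4 of 23 alternatives. Kdr passed without any of IF mice 10, 11 and 12 (-0.64 to -0.61) and Tek without IF mouse 12 (-0.25), and both passed with DESeq2 (-0.55 and -0.23).

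**Figure D2:**
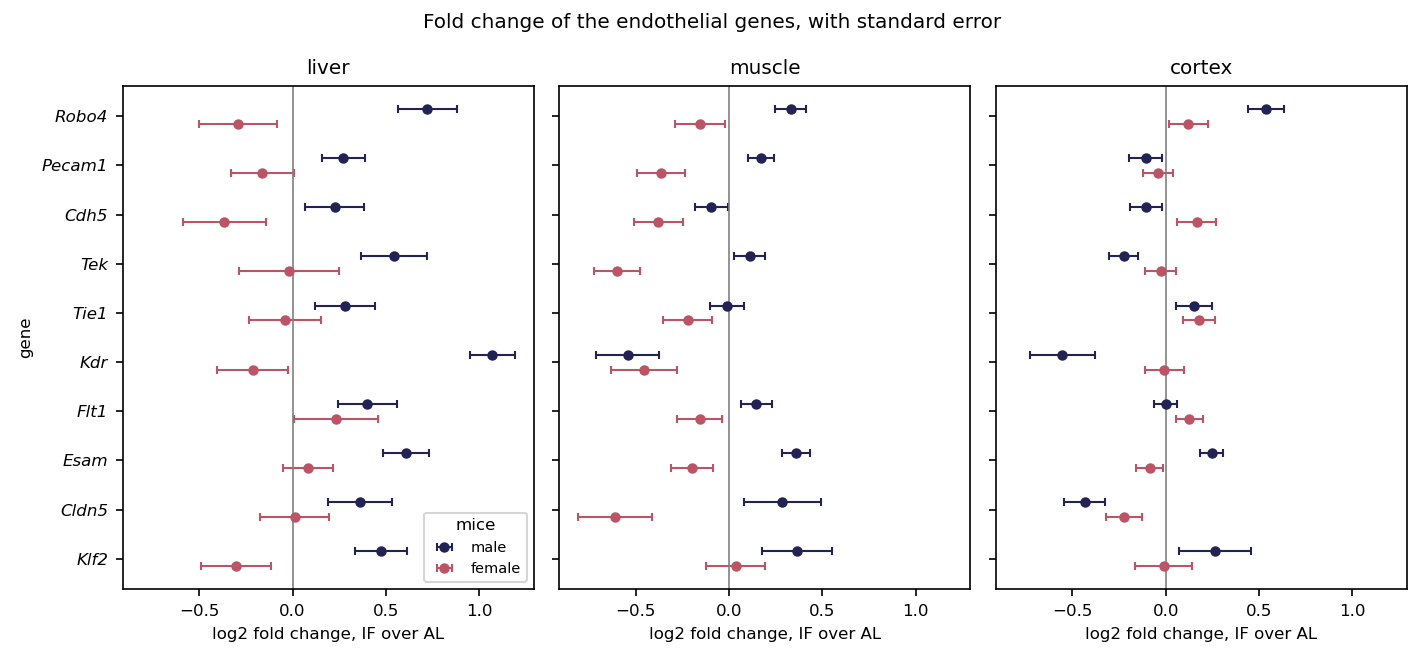
Fitted log2 fold change, IF over AL (x axis), of the 10 genes (y axis) in liver, muscle and cortex, for male mice in dark blue and female mice in red, with bars of 1 standard error. The male values of liver lie right of 0 for all 10 genes, from 0.23 to 1.07, while those of muscle and cortex lie on both sides.

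In female mice, no gene of the 10 had an adjusted p under 0.05 in edgeR's test in any tissue, and the AL and IF libraries of each of them overlapped in each tissue. Groups without overlap were rare in females, at 0.0188% of all genes tested in liver, 0.0915% in muscle and 0.0435% in cortex. In female liver 0% of the 15938 genes tested passed, with 919 (5.77%) at an unadjusted p under 0.05 and 8 by DESeq2, and 0 of the 10 genes were at an unadjusted p under 0.05 or passed in DESeq2. Robo4 lay between 14.7 and 39.9 CPM in AL (median 22.7) and between 8.98 and 35.03 CPM in IF livers (median 17.4), at a log2 fold change of -0.29 ± 0.21 (SE, n = 8 and 8). Kdr was at -0.21 ± 0.19 and Esam at 0.08 ± 0.13. The range over the 10 genes was -0.37 to 0.24, with a median of -0.10 beside -0.01 for all genes tested.

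In female muscle, 0.00653% of the 15308 genes tested passed (1 gene, but 83 by DESeq2). Of the 10 genes 5 had an unadjusted p under 0.05, beside 10.7% of all genes tested, and 1 passed in DESeq2. That gene, Tek, lay between 9.82 and 13.5 CPM in AL (median 12.5) and between 5.51 and 10.8 CPM in IF (median 7.26), with 7 of 8 IF libraries below all AL libraries and a log2 fold change of -0.60 ± 0.12. It also passed in edgeR without IF mouse 33 and with no filter beyond 1 count. Cldn5 was at -0.61 ± 0.20, with 4.47 to 12.6 CPM in IF against 8.29 to 19.4 CPM in AL, and Robo4 at -0.16 ± 0.13. Of the 10 log2 fold changes 9 were below 0, and the median was -0.29 beside -0.02 for all genes tested. In the lists of other cells, where none passed, all 8 mural genes were below 0 too (median -0.30). Their sum had medians of 571 CPM in AL and 458 CPM in IF. Also below 0 were all 4 fibroblast, 4 adipocyte and 3 stellate genes tested. Above 0 were all 4 muscle fibre genes (median 0.16) and 4 of 5 erythrocyte genes. The part of these cells in the values of the 10 genes was not tested. In female cortex, 0.0109% of the 18403 genes tested passed (2 genes). This number was not stable, at 0 to 254 with single mice left out and 60 with DESeq2. Of the 10 genes 1 had an unadjusted p under 0.05, beside 11.2% of all genes tested, and 0 passed in DESeq2. Robo4 lay between 7.99 and 12.2 CPM in AL (median 10.2) and between 7.94 and 13.3 CPM in IF cortex (median 11.3), at 0.12 ± 0.10, and the 10 genes ranged from -0.22 (Cldn5) to 0.18 (Tie1).

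The differences between the sexes were fitted as the log2 fold change in females minus that in males. In liver, 4 of the 10 genes passed in edgeR's test across all genes, where 23.7% of 17658 genes passed. The difference was -1.25 ± 0.23 (SE) for Kdr, -0.98 ± 0.28 for Robo4, -0.75 ± 0.24 for Klf2 and -0.49 ± 0.18 for Esam. In muscle, 5 passed beside 14.2% of 16346 genes, at -0.88 ± 0.29 for Cldn5, -0.69 ± 0.15 for Tek, -0.54 ± 0.14 for Esam, -0.52 ± 0.14 for Pecam1 and -0.47 ± 0.16 for Robo4. In cortex 0 of the 10 passed beside 2.03% of 19547 genes. Behind this share were 397 genes, or 81 with the library of AL mouse 1 included. An unadjusted p under 0.05 was found for 4 of the 10, beside 15.4% of all genes. Of the 10 differences 7 were above 0, the highest 0.55 ± 0.21 for Kdr, while Robo4 was at -0.41 ± 0.14 and Esam at -0.33 ± 0.10. In liver, Klf2 (-0.73) and Esam (-0.51) no longer passed with a replicate block, and Esam also with no filter beyond 1 count (-0.48). In muscle, Robo4 (-0.47) and Cldn5 (-0.88) no longer passed with no filter beyond 1 count, and Cldn5 also with the block. These fits use the AL and IF libraries that were known when the genes were chosen, so the counts are a description.

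Differences between tissues were fitted over both sexes, without a term for the mouse unless stated, although the tissues share mice. Kdr differed most, with a log2 fold change 0.91 ± 0.17 (SE) higher in liver than in muscle and 0.70 ± 0.17 higher in liver than in cortex. These values pool sexes that differed, since the log2 fold changes of Kdr in liver and muscle were 1.07 and -0.54 in males but -0.21 and -0.46 in females. For liver against muscle, 2 of the 10 genes passed (Kdr, and Tek at 0.48 ± 0.16) beside 21.5% of 23101 genes, and for liver against cortex 2 passed (Kdr, and Cldn5 at 0.52 ± 0.18) beside 20.4%. For muscle against cortex 0 of the 10 passed, beside 0.952% of all genes, and 0 of the 10 had an unadjusted p under 0.05, beside 11.8% of all genes. Robo4 was at 0.10 ± 0.15 for liver against muscle, -0.12 ± 0.15 for liver against cortex and -0.23 ± 0.15 for muscle against cortex. With the mouse as a block, which pairs the tissues of an animal, Cldn5 no longer passed for liver against cortex (0.47 ± 0.17). Esam passed for liver against muscle (0.29) and liver against cortex (0.29) when libraries were scaled by their totals alone, and for the latter with the library of AL mouse 1 (0.28).

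The other endothelial genes comprised 41 genes in 4 lists, of which 38 were tested in liver, 40 in muscle and 41 in cortex. These lists too were chosen with earlier results of these data known, so the p-values below are no independent evidence for the genes named. In male liver 22 rose and 4 fell at an adjusted p under 0.05 in edgeR's test, where 23.5% of all genes tested rose and 21.1% fell, and their median log2 fold change was 0.66, beside 0.06 for all genes. Among 20 further pan-endothelial genes 13 rose and 1 fell (S1pr1). Vwf, which encodes the clotting protein von Willebrand factor, rose from 5.78 ± 1.85 to 16.6 ± 9.34 CPM (SD, n = 8 each; log2 fold change 1.42 ± 0.29, edgeR adjusted p = 0.00057). Emcn, which encodes the surface sialomucin endomucin, rose from 1.15 ± 0.345 to 3.21 ± 0.948 CPM (1.38 ± 0.26, edgeR adjusted p = 0.00012), without overlap between the groups. All 4 genes listed as flow-responsive (Klf4, Nos3, Thbd and Edn1) rose, led by Thbd, which encodes thrombomodulin, from 0.689 ± 0.311 to 3.53 ± 1.38 CPM (2.24 ± 0.31, edgeR adjusted p = 2.7e-06), again without overlap. That list does not give the direction in which flow acts on each gene, and a response to flow was not tested. Of the ligands and co-receptors, 3 of 9 tested rose (Vegfb, Flt4 and Unc5b) and 1 fell (Vegfa, the ligand gene of Kdr and Flt1).

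In male muscle 4 of the 40 other endothelial genes tested rose and 5 fell, a share near the 23.0% of all genes that passed there and so no result about endothelial genes. S1pr1, which encodes a receptor for sphingosine phosphate, rose from 13.4 ± 1.18 to 30.3 ± 7.19 CPM (SD, n = 8 each; 1.10 ± 0.12, edgeR adjusted p = 2.8e-06), without overlap. Unc5b, a partner of Robo4, fell from 7.15 ± 1.05 to 4.28 ± 1.58 CPM (-0.80 ± 0.20, edgeR adjusted p = 0.0059). Pgf, a ligand of Flt1, fell from 1.89 ± 0.570 to 1.31 ± 0.336 CPM (-0.60 ± 0.21, edgeR adjusted p = 0.045), a call that was lost in 15 of 23 alternatives (adjusted p 0.031 to 0.10 over them). The median was -0.02 for these genes and 0.01 for all genes. S1pr1 thus rose in muscle and fell in liver, where it went from 25.3 ± 7.77 to 14.1 ± 1.95 CPM (-0.93 ± 0.15, edgeR adjusted p = 2.2e-05).

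In male cortex 3 of the 41 rose and 1 fell, beside 7.21% of all genes tested that passed. Vwf rose from 16.1 ± 2.20 (SD, n = 7) to 23.6 ± 2.54 CPM (SD, n = 8; 0.57 ± 0.09, edgeR adjusted p = 0.0015), without overlap. The transcription factor gene Sox18 fell from 20.9 ± 2.24 to 14.9 ± 2.90 CPM (-0.47 ± 0.11, edgeR adjusted p = 0.015), and this call was lost with the library of AL mouse 1. Flt4, a receptor gene best known from lymphatic vessels, rose from 3.23 ± 0.859 to 4.68 ± 0.877 CPM (0.55 ± 0.16, edgeR adjusted p = 0.044), which was lost in 16 of 23 alternatives (adjusted p 0.011 to 0.12). In females 0 of these genes passed in edgeR or DESeq2 in any tissue, with 2 of 38 at an unadjusted p under 0.05 in liver (5.77% of all genes tested), 13 of 40 in muscle (10.7%) and 5 of 41 in cortex (11.2%). Their median was -0.05 in female liver, -0.23 in female muscle and 0.03 in female cortex.

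Genes of other cells also differed between the diets in male liver, and no gene of these lists passed in female mice. The counts below stand beside 23.5% of all genes tested that rose and 21.1% that fell in male liver, and several lie near these shares. The sum of 5 erythrocyte genes lay between 362 and 956 CPM in AL livers (median 569) and between 667 and 6879 CPM in IF livers (median 2070), with Hba-a1 the most abundant, and 3 of the 5 rose. The sum of 10 sinusoidal endothelial genes lay between 257 and 348 CPM in AL (median 280) and between 386 and 752 CPM in IF (median 435), without overlap, led by Stab1, and 7 of the 10 rose. The sum of the 10 genes described here lay between 115 and 163 CPM in AL and between 173 and 311 CPM in IF. IF mouse 9 was highest in each of these 3 sums. The next highest differed, being mouse 10 for the erythrocyte sum (4344 CPM, with 188 CPM for the 10 genes). It was mouse 13 for the sinusoidal sum (618 CPM) and for the 10 genes (246 CPM), with 1692 CPM for the erythrocyte sum. All 4 platelet genes rose (sums of 10.6 to 18.4 CPM in AL and 19.8 to 46.5 CPM in IF, led by Itga2b), as did 3 of 8 mural genes (Kcnj8, Acta2 and Myh11) and 2 of 4 hepatic stellate genes (Colec11 and Dcn). The mural sum had medians of 49.2 and 71.0 CPM, with Abcc9 the most abundant, and the stellate sum medians of 104 and 171 CPM, with Dcn the most abundant. Of 4 fibroblast genes 2 rose (Pdgfra and Lum; medians of 21.9 and 26.7 CPM for the sum, with Col1a2 the most abundant), and of 6 macrophage genes 1 rose (C1qa; medians of 95.4 and 116 CPM, led by Csf1r in AL and C1qa in IF). Of 4 hepatocyte genes 1 fell (Apoa1), with medians of 52493 and 48493 CPM for the sum, led by Alb. None of 3 leukocyte genes passed (medians of 10.1 and 8.69 CPM, led by Ptprc). No gene of these lists was at 0 in all male liver libraries of a diet. Their part in the values of the 10 genes was not tested.

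Lists named after endothelium of other organs also held liver genes that passed. Of 6 brain endothelial genes tested in male liver 4 rose, with sums of 62.2 to 128 CPM in AL and 155 to 406 CPM in IF. Slco1a4 led in AL (mean 40.9 CPM) and Mfsd2a in IF (mean 227 CPM). In fed female livers this sum was 193 to 574 CPM, with Slco1a4 at a mean of 236 CPM. Whether these liver reads came from endothelial cells was not tested. Of 4 muscle capillary genes 2 rose and 1 fell (medians of 85.4 and 143 CPM, led by Cd36 in AL and Aqp1 in IF).

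In male muscle, where 11.5% of all genes tested rose and 11.6% fell, 3 of 4 adipocyte genes rose, with sums of 9.81 to 121 CPM in AL (median 34.3) and 35.8 to 613 CPM in IF (median 176), led by Cidec. All 4 muscle capillary genes rose as well (sums of 518 to 890 CPM in AL and 922 to 2690 CPM in IF, led by Aqp1 in AL and Fabp4 in IF), and Fabp4 is also an adipocyte gene. The erythrocyte sum had medians of 346 and 437 CPM (led by Hbb-bs) and none of its 5 genes passed. Of the other lists, 1 of 8 mural genes (Kcnj8; medians of 470 and 503 CPM, led by Rgs5), 2 of 4 fibroblast genes (medians of 166 and 126 CPM, led by Col1a2), 1 of 6 macrophage genes (medians of 78.1 and 55.9 CPM, led by C1qa), 1 of 3 leukocyte genes (medians of 4.57 and 3.38 CPM, led by Cd3e), 1 of 2 platelet genes tested (medians of 11.5 and 8.29 CPM, led by Pf4) and 1 of 4 muscle fibre genes (medians of 120772 and 119053 CPM, led by Acta1) fell. In male cortex, where 3.79% of all genes tested rose and 3.43% fell, 3 of 8 brain endothelial genes rose (Slc2a1, Mfsd2a and Ly6c1), with sums of 312 to 350 CPM in AL (median 329) and 348 to 455 CPM in IF (median 404), led by Slc2a1. Cldn5, of the same vessels, went the other way. Of 3 oligodendrocyte genes 2 rose (medians of 4296 and 6306 CPM, led by Mbp), 1 of 4 astrocyte genes fell (medians of 615 and 546 CPM, led by Slc1a3) and 1 of 2 leukocyte genes tested fell (medians of 2.57 and 1.70 CPM, led by Ptprc), while none of the neuronal (medians of 5785 and 5892 CPM, led by Snap25), mural (204 and 203 CPM, led by Rgs5), macrophage and microglia (304 and 280 CPM, led by Csf1r) or erythrocyte genes (261 and 246 CPM, led by Hbb-bs) passed. Lists named after other organs were found here too. In male muscle 1 of 5 brain endothelial genes tested rose (Ly6c1), 1 of 7 sinusoidal genes rose (Stab2) and 1 fell (Stab1), and in male cortex 1 of 2 muscle capillary genes tested fell (Cd36). The part of these cells in the values of the 10 genes was not tested.

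Robo4 and Esam lie near each other on chromosome 9. Robo4 (ENSMUSG00000032125) spans 37313193 to 37326411 and Esam (ENSMUSG00000001946) 37439374 to 37449615 of GRCm39, both on the plus strand, with 113 kb between them. The genes between them were looked at after the values of Robo4 and Esam had been seen. The count table lists 4, of which Robo3 and Msantd2 encode proteins. Msantd2 was tested in each tissue and Robo3 in liver and cortex, and 0 of them had an adjusted p under 0.05 in edgeR's test in male mice. Msantd2 had male log2 fold changes of -0.28 ± 0.18 (SE) in liver, 0.25 ± 0.16 in muscle and -0.16 ± 0.08 in cortex. Robo3 lies 553 bases beyond the end of Robo4 on the minus strand, does not overlap it, and was at -0.45 ± 0.31 in male liver and 0.40 ± 0.27 in male cortex. The other 8 endothelial genes lie on chromosomes 4, 5, 8, 11 and 16. In the reference annotation, exons of Cdh5 and of Tie1 each overlap a long non-coding gene on the other strand, and whether strand was used in counting is not stated, so reads of those pairs may not be told apart.

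**Figure D3:**
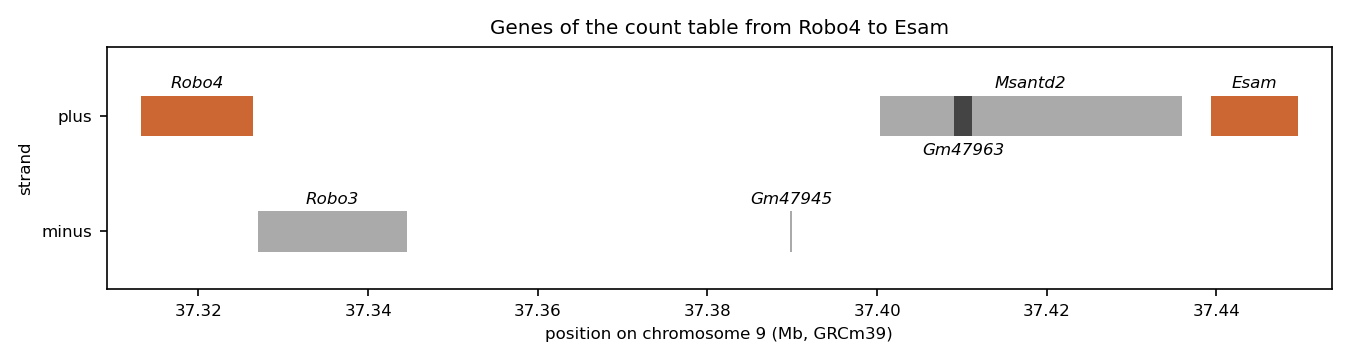
Map of the genes of the count table from Robo4 to Esam, by position on chromosome 9 of GRCm39 in Mb (x axis) and strand (y axis), with Robo4 and Esam in orange and the 4 genes between them in shades of grey. Robo4 and Esam share the plus strand, and Msantd2, whose values did not pass in male mice, lies directly before Esam.

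Promoter sequences were available from RefSeq (GRCm38.p6) for 7 of the 10 genes, all but Pecam1, Cdh5 and Esam. The 250 bases before the start of each gene were searched, on both strands, for AGGAAG, which holds the GGAA core of sites of the ETS factor family, and for CACCC, the box bound by KLF factors. AGGAAG occurred in 3 of the 7 (Robo4, Tie1 and Flt1), beside 29.5% of 32851 promoters, and CACCC in 6 of the 7, all but Robo4, beside 52% of the promoters. A match describes the letters and is no evidence of binding. The sequences of Robo4, the gene around which the others were chosen, and of Kdr, whose log2 fold change had opposite signs in male liver and muscle, are shown 5′ to 3′ on their own strand. Capitals mark AGGAAG at position -49 from the start in Robo4 (chr9:37401722-37401971, plus strand) and CACCC at -65 in Kdr (chr5:75978456-75978705, minus strand).
Robo4: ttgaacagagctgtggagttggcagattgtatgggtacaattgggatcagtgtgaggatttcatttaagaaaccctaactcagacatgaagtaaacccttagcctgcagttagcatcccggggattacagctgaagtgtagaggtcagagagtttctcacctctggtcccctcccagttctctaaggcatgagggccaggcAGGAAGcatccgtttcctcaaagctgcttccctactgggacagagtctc
Kdr: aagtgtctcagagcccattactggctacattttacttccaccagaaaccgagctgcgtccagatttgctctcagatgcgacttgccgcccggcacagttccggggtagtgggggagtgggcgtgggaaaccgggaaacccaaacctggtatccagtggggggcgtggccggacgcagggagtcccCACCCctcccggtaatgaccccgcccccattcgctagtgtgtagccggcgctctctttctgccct

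The genes most like Robo4 over the 12 group means of log2 CPM, out of 15852 genes with a mean of at least 1 CPM, were Acad8 (Pearson r = 0.957), Ushbp1 (0.953), Rsad2 (0.949), Igfbp3 (0.945), Ubr2 (0.942), Ctcfl (0.937), Retsat (0.936) and Il1r1 (0.931). For Ctcfl the likeness rests on liver, since its mean log2 CPM was -1.32 or lower in each muscle and cortex group. The likeness is a description over 12 groups of 3 tissues that share mice. No p-value is attached to it. None of the other 9 endothelial genes was among them. Over the same means Kdr had r = 0.66 and Tie1 r = 0.24 with Robo4, and the remaining 7 had negative values, from -0.71 for Flt1 to -0.09 for Tek. All these r values rest on scaling by library totals, and none is given with TMM factors, so their signs may depend on the scaling. In fed males TMM factors put Pecam1, Cdh5 and Tek lowest in cortex, as Robo4 was. Flt1, Esam, Cldn5 and Klf2 stayed lowest in liver.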

How the data were processed

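Deposited values are the raw read count of each gene, which the authors made, per the submitters' processing notes, by base calling with CASAVA and aligning directional poly-A reads to mm39 with HISAT2, and per the study's methods by counting with featureCounts, whose strand setting is not stated. The authors' table also gives each gene's length in bases. The labels supplied tissue, sex, diet and replicate of each sample. From the counts, CPM (over library totals), RPKM and log2 CPM (prior count 2) were computed. Fits were made in R 4.3.3 by edgeR 4.0.16 (TMM normalization), using its expression filter (minimum count 10, minimum total 15), robust quasi-likelihood tests and Benjamini-Hochberg adjustment over all genes tested (threshold 0.05), tested on simulated data. Errors of fold changes are SE. The 10 genes and the gene lists were chosen with earlier results of these data known. From the other endothelial lists, values are given for the 3 genes per tissue and sex with the largest absolute log2 fold change among those that passed. S1pr1 is also given in liver, and some others that passed are named without values. The 8 genes best correlated with Robo4 are named too. Sex-linked genes only checked labels, and 1 library was left out for them. Tissues share animals, but the tissue comparisons as designed hold no term for the mouse. The fit with the mouse as a block is an alternative. Alternatives were RLE size factors, library totals, DESeq2 1.42.0, other filters, a replicate block, single mice left out, AL mouse 2 and IF mouse 10 left out, and the left-out library. Figures used matplotlib 3.10.9 in Python 3.11.15.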

Additional observations from a re-analysis of the deposited data

Results flagged for a closer look

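The highest or lowest library of a group stood apart from the others in 8 of 120 groups of CPM values, where chance gives about 1 in 20, or 6. In male IF liver, mouse 9 held 21.3 CPM of Flt1 and 25.02 CPM of Esam, with the nearest library at 13.6 and 18.3 CPM. Female IF mouse 34 had 20.1 CPM of Cdh5 and 19.2 CPM of Esam in liver, with the nearest at 11.8 and 13.6 CPM. Female AL liver held 39.9 CPM of Robo4 in mouse 26 (nearest 25.7 CPM) and 23.4 CPM of Cdh5 in mouse 28 (nearest 13.8 CPM). In muscle of male AL mouse 8, Esam was low at 20.4 CPM (nearest 24.5 CPM), and in cortex of female AL mouse 30 Klf2 was high at 34.5 CPM (nearest 24.97 CPM).

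The log2 fold change differed between the sexes, females minus males, at an adjusted p under 0.05 in edgeR's test of the difference. In liver this was so for 23.7% of all genes and for Robo4 (-0.98 ± 0.28, SE), Kdr (-1.25 ± 0.23), Esam (-0.49 ± 0.18) and Klf2 (-0.75 ± 0.24). In muscle it was so for 14.2% of all genes and for Robo4 (-0.47 ± 0.16), Pecam1 (-0.52 ± 0.14), Tek (-0.69 ± 0.15), Esam (-0.54 ± 0.14) and Cldn5 (-0.88 ± 0.29). With a replicate block, Esam and Klf2 in liver and Cldn5 in muscle no longer passed, nor did Esam in liver and Robo4 and Cldn5 in muscle with no filter beyond 1 count. Between tissues, Tek (0.48 ± 0.16) and Kdr (0.91 ± 0.17) differed for liver minus muscle, and Kdr (0.70 ± 0.17) and Cldn5 (0.52 ± 0.18) for liver minus cortex, beside 21.5% and 20.4% of all genes. With the mouse as a block, which pairs its tissues, Cldn5 no longer passed (0.47 ± 0.17). The genes were chosen with AL and IF values of these libraries known.

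The cortex library of AL mouse 1, labelled male and left out, held 213 CPM of Xist, within the 185 to 337 CPM of the female cortex libraries.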

How the results depend on the processing

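The numbers of genes that passed in male liver and male muscle stayed within 1.5 times under each alternative run, as did those for the difference between the sexes in liver and muscle and for liver against muscle and against cortex. Those of the other comparisons moved under some alternatives, and the cause was not tested. With DESeq2 the genome-wide counts were 8 in female liver (0 in edgeR), 83 in female muscle (1), 60 in female cortex (2) and 2140 in male cortex (1332), and of the 10 endothelial genes 5 passed in male cortex and 1 in female muscle. With no filter beyond 1 count, 5 genes passed in female muscle, with 1 of the 10 genes, 1 of the 10 passed in male cortex in place of 3, and 3 in place of 5 passed for the difference between the sexes in muscle. With library totals alone 0 genes passed in female cortex. With the cortex library of AL mouse 1 included, 294 genes passed in male cortex, with 1 of the 10 genes, and 81 in place of 397 for the difference between the sexes in cortex. Without AL mouse 2 and IF mouse 10, 498 passed in male cortex.

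Leaving out 1 mouse at a time gave 638 to 2060 genes in male cortex and 2 to 5 of the 10 genes. Counts over 1.5 times from the full one came without AL mouse 2 (638), 3 (766) or 5 (771) and IF mouse 11 (877), 12 (2060), 13 (866) or 14 (823). In female cortex the range was 0 to 254, the latter without AL mouse 26, and in female muscle 1 to 3, with 0 to 1 of the 10 genes. In male liver 4 to 7 and in male muscle 2 to 4 of the 10 genes passed.

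AL and IF mice share replicate numbers in the labels but are different animals. The correlation of deviations from the group means between same-numbered libraries ran from -0.26 to 0.46 over 47 pairs, and 10 pairs were over 0.1. Female muscle held 4 of these, with a median of 0.08 over its 8 pairs. The fits as designed did not pair the libraries by number. With the replicate block, 389 genes passed in male cortex, with 1 of the 10 genes (Robo4), and 0 in female cortex, and 2 of the 10 genes passed for the difference between the sexes in liver (4 without the block). With the mouse as the replicate block, 1 of the 10 genes in place of 2 passed for liver against cortex, and 121 genes in place of 220 for muscle against cortex.

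Some differences that had not passed changed sign. The difference between the sexes for Kdr in muscle was -0.046 with library totals alone (0.10 as designed), and that of Esam for muscle against cortex -0.0022 with RLE size factors (0.02). Tie1 in male muscle (-0.01 as designed) changed sign in 6 of 23 alternatives and Flt1 in male cortex (0.00) in 10 of 23. In females, of 22 alternatives, Tek and Cldn5 in liver changed sign in 7 each, Tie1 in liver in 5, Esam in liver in 1, Klf2 in muscle in 5, Klf2 in cortex in 9, Kdr in cortex in 8, Tek in cortex in 2 and Pecam1 in cortex in 1. Library totals alone moved the median log2 fold change of all genes in male liver from 0.06 to 0.15.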
